A study of Homo sapiens with 18 samples.

Results

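The genes described here carry out autophagy and lysosomal digestion: the autophagy genes with an ATG symbol, the ULK kinases, WIPI1 and WIPI2, the GABARAP and LC3 genes that form the ATG8 family, the cargo receptor SQSTM1, the transcription factors TFEB, TFE3 and MITF, the LAMP membrane proteins, the cathepsins with a single-letter suffix, and the ATP6V0 and ATP6V1 genes of the proton pump. They were chosen by a rule on symbols, which gave 76 rows of the 23621 genes in the table. Earlier results of these data were known when they were chosen. RNA was sequenced from GIST-T1, a human gastrointestinal stromal tumor line that the labels call KIT-dependent, in 18 libraries that fall into 6 groups of 3. The control cells received the solvent DMSO, for which the labels give no time. The treated cells received imatinib or JQ1 alone, each for 6 h or for 24 h, or both drugs together for 24 h (the combination), always at 500 nM. Imatinib inhibits the KIT receptor tyrosine kinase, and JQ1 displaces BET bromodomain proteins from acetylated chromatin. All groups are 1 cell line. Nothing in the labels tells whether the libraries within a group were grown as separate cultures, and the p-values below therefore rest on the spread between libraries alone, which may be technical.

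In autophagy, a double membrane closes around cytoplasm and fuses with the lysosome. The ULK1 kinase complex starts the process, ATG9A vesicles, ATG2 lipid transfer proteins and WIPI proteins build the membrane, and a ubiquitin-like conjugation system (ATG3, ATG4, ATG5, ATG7, ATG10, ATG12, ATG16L1) attaches the ATG8 proteins to it. SQSTM1 ties cargo to the ATG8 proteins. In the lysosome, cathepsins digest the cargo in the acid that the V-ATPase makes by coupling ATP use in its V1 sector to proton flow through its V0 sector. TFEB, TFE3 and MITF bind E-boxes in the promoters of many of these genes, in a motif named CLEAR, and are held in the cytoplasm by phosphorylation when mTORC1 is active. These steps are controlled to a large extent on proteins, which RNA levels do not show.

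The promoter motif is shown here because it is the feature of these genes through which TFEB, TFE3 and MITF are known to act. RefSeq promoters (GRCh38.p14), from 250 bases before each gene's start, were searched on both strands for TCACGTG, which reads CACGTGA on the other strand. The motif was present in 10 of the 57 members that had a promoter in the table (17.5%) and in 1099 of 27305 promoters of all genes (4.02%). The 10 genes were ATG14, ATG3, ATP6V0B, ATP6V0D1, ATP6V0E2, ATP6V1G1, CTSA, CTSD, CTSF and LAMP1. The stretches below run 5′ to 3′ on the gene's own strand, with the matches in capitals; they show LAMP1 with 5 places, CTSA and ATP6V0B with 2 places each, and 3 genes with 1 place that the results return to.
LAMP1 (chr13:113297031-113297232, plus strand): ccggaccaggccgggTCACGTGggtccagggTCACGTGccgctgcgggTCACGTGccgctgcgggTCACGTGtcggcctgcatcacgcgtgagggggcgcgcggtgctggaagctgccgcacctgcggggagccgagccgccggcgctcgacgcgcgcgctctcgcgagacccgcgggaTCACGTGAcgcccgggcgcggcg
CTSA (chr20:45891277-45891331, plus strand): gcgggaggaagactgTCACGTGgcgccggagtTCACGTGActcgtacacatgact
ATP6V0B (chr1:43974887-43974941, plus strand): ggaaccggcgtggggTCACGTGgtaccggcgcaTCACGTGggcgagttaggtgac
CTSF (chr11:66568708-66568744, minus strand): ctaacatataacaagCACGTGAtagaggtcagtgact
CTSD (chr11:1763953-1763989, minus strand): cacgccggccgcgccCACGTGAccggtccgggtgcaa
ATG3 (chr3:112561963-112561996, minus strand): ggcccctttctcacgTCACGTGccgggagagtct
A match describes letters in this window and is not a measured binding site.

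The deposited values are FPKM, reads per transcript length and library size, in a table whose name calls them normalized. Per the labels, ERCC spike-in RNA was added after RNA had been brought to equal cell numbers, and the sums over the spike-in rows lay between 6505 and 6948 in all 18 libraries. The deposited values were therefore read as amounts per spike-in. Their totals over genes were lower than in DMSO by 1.72 times after 6 h and 4.60 times after 24 h of imatinib, by 1.77 and 3.52 times after JQ1, and by 5.80 times after the combination. A second quantity, the relative scale, divided each library by its median ratio to the average library, and shows a gene's level among the other genes of the same library. In bulk RNA, fewer cells of a type and less RNA per cell cannot be told apart. All 7 GIST markers were above 1 FPKM in every group, and KIT itself went from a mean of 644 FPKM in DMSO to 16.3 in the combination. The summed markers were between 1439 and 2174 FPKM in DMSO and between 120 and 211 in the combination. All 10 macrophage and leukocyte markers and all 4 osteoclast markers were under 1 FPKM in every group, as were 4 of 5 melanocyte markers. Read depth is unknown, because the table holds no counts.

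Against DMSO, most of these genes had fallen on the deposited scale in the 3 groups treated for 24 h, as most genes had, while on the relative scale a small set of them rose. A call required an adjusted p below 0.05 and a log2 change of at least 1 in limma, fitted on log2(FPKM + 1), where the added 1 is the pseudocount, over all 12771 genes with 1 FPKM or more in at least 3 libraries. Of the 76 members, 63 passed that filter. The other 13, among them ULK2, MAP1LC3C, CTSE, CTSG, CTSW, CTSZ and ATP6V0D2, did not exceed 0.579 FPKM in any library. All 5 treated groups were compared with the same 3 DMSO libraries, so the comparisons are not independent of one another.

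After 6 h of imatinib, all 4 called members on the deposited scale had fallen (ATG16L1, ATP6V0A2, ATG4B and ULK3), where 20.0% of all tested genes fell. After 6 h of JQ1 all 22 calls were falls, against 49.8% of genes. The numbers were 41 falls after 24 h of imatinib (72.1% of genes), 45 after 24 h of JQ1 (75.3%) and 55 after the combination (86.0%). The share of the 63 members that fell was below the share of genes after 6 h of either drug and after 24 h of imatinib. It was close to the share of genes after 24 h of JQ1, where the count ranged from 41 to 48 with 1 library left out, and after the combination. The median member change was −0.57, −0.83, −1.43, −1.30 and −1.85 on the log2 scale in that order, beside −0.69, −1.0, −1.50, −1.49 and −2.05 over all genes. Both 6 h counts rested in part on single libraries. Without DMSO replicate 1 the imatinib count was 8, and without DMSO replicate 3 the JQ1 count was 12.

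The relative scale gave few calls, and all except those of CTSS were rises. All 3 calls after 6 h of imatinib were rises (ULK1, ATG13 and GABARAPL1; 1.22% of genes rose). The 1 call after 6 h of JQ1 was MAP1LC3B, beside 2.47% of genes, and the count was 2 without DMSO replicate 2 or without JQ1 6 h replicate 2, and 4 with a pseudocount of 0.1. After 24 h of imatinib 11 of 63 members rose (8.80% of genes), or 7 among genes with a mean of 5 FPKM or more. The 11 include ATP6V1G2 and the readthrough row ATP6V1G2-DDX39B, which share sequence and are not independent. After 24 h of JQ1, CTSF, MAP1LC3A and ULK1 rose (5.26% of genes) and CTSS fell (6.48% of genes), and with a pseudocount of 0.1 the count was 7. After the combination 11 members rose (9.19% of genes) and CTSS fell (10.2% of genes). Those 11 include MAP1LC3B and MAP1LC3B2, whose transcripts are nearly identical where they align. The median member change was 0.11, 0.18, 0.21, 0.22 and 0.34 in the same order, and the median over all genes was within 0.015 of 0 in each.

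**Figure D1:**
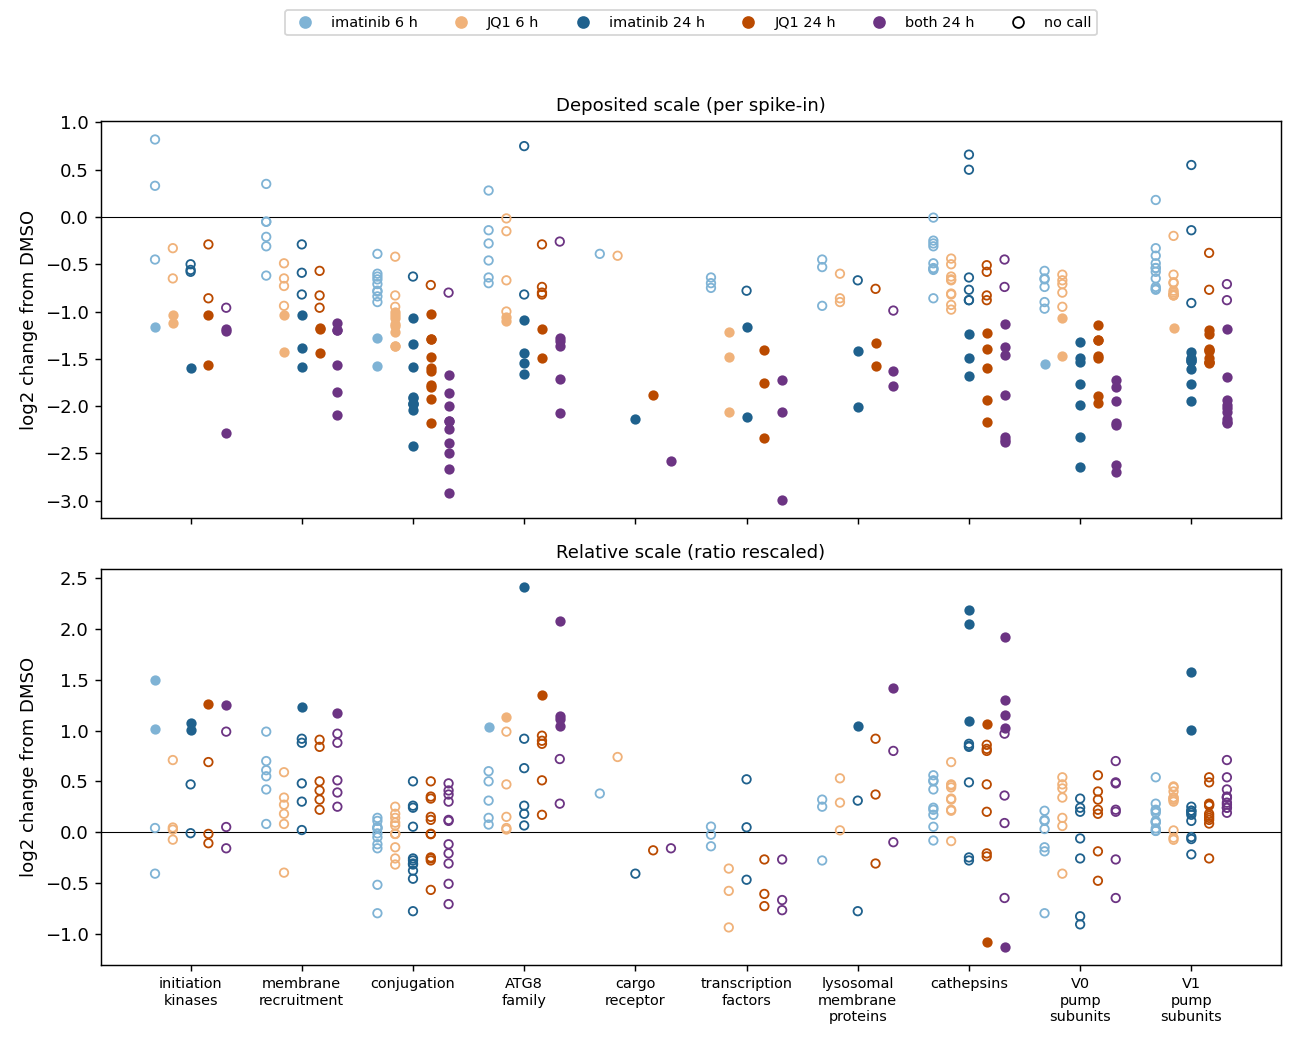
Log2 change from DMSO of each tested member other than the antisense and readthrough rows, grouped by role, in the 5 treated groups; the upper panel is the deposited spike-in scale and the lower panel the relative scale, with filled points for calls and open points for no call. On the deposited scale the calls lie below −1, and on the relative scale the conjugation genes and the V0 subunits lie between −1 and 1.

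Among the initiation genes, ULK1 and ATG13 were the 2 that rose on the relative scale after 6 h of imatinib. ULK1, the kinase that opens the pathway, had 12.6, 14.8 and 18.5 FPKM in DMSO and 25.7, 26.2 and 30.8 FPKM after 6 h of imatinib. All 3 imatinib libraries were above all 3 DMSO libraries, and ULK1 was the 1 member of 63 for which this held at 6 h, while 1.78% of all genes did so. The mean was 1.80 times the DMSO mean, a log2 change of 0.82 ± 0.18 (SE, adjusted p = 0.000449, limma), which is under the size required for a call. ULK1 rose on the relative scale, by 1.50 ± 0.052 (adjusted p = 1.23e-12, limma). At 24 h of imatinib its mean was 10.4 FPKM, a deposited change of −0.5 from DMSO without a call. The means were 11.9 and 12.2 FPKM after 6 and 24 h of JQ1. The combination had 5.61, 10.6 and 6.48 FPKM, all under the lowest DMSO value, with a log2 change of −0.96 that passed a size of 1 without DMSO replicate 1 (−1.08) or without combination replicate 2 (−1.20). Relative to other genes, ULK1 stayed raised at 24 h, by 1.08 after imatinib, 1.26 after JQ1 and 1.25 after the combination, all called.

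ATG13, the subunit that binds ULK1 to its partners, took the same course after imatinib but not after JQ1. Its libraries had 12.7, 15.5 and 19.7 FPKM in DMSO, 19.5, 18.1 and 22.9 FPKM after 6 h of imatinib, and 6.86, 6.16 and 7.03 FPKM after 6 h of JQ1. The imatinib libraries overlapped DMSO and the JQ1 libraries were all lower. ATG13 fell by 1.12 on the log2 scale with JQ1, and on the relative scale it rose by 1.02 ± 0.04 with imatinib (adjusted p = 4.7e-12, limma), a change that was 0.99 without imatinib 6 h replicate 3 or with 1 total per library. ULK3 had a mean of 20.0 FPKM in DMSO and 8.34 FPKM after 6 h of imatinib, a fall of 1.16 (adjusted p = 1.84e-05, limma) that was −1.0 and no longer called without DMSO replicate 3. ULK4 was low, with 2.31 FPKM in DMSO and between 0.454 and 1.41 FPKM in the treated groups.

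Among the 6 tested genes that recruit the membrane, the numbers that fell on the deposited scale were 2 after 6 h of JQ1 (49.8% of genes fell), 3 after 24 h of imatinib (72.1%), 3 after 24 h of JQ1 (75.3%) and all 6 after the combination (86.0%). WIPI1, which binds the lipid phosphatidylinositol 3-phosphate on the forming membrane, had 8.69, 9.07 and 12.8 FPKM in DMSO and 12.7, 12.6 and 13.9 FPKM after 6 h of imatinib, so that the groups overlapped. Its relative change there was 0.99 ± 0.065 (adjusted p = 2.07e-09, limma), just short of a call, and after 24 h of imatinib WIPI1 rose by 1.23 ± 0.065 (adjusted p = 3.17e-11). WIPI2, its paralog that brings ATG16L1 to the membrane, was more abundant, with a mean of 62.5 FPKM in DMSO, and at 6 h it had 59.5 with imatinib and 29.4 with JQ1. WIPI2 fell by 1.20 with the combination on the deposited scale and rose by 1.17 on the relative scale. ATG9A, the lipid scramblase whose vesicles seed the membrane, had mean levels of 66.0 FPKM in DMSO, 56.0 and 24.1 after 6 and 24 h of imatinib, 33.3 and 23.4 after JQ1, and 14.8 after the combination. Its relative changes lay between 0.18 and 0.55 in the 5 comparisons, but with 1 total per library the JQ1 6 h value was −0.063.

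Of the 11 tested conjugation enzymes, 2 fell on the deposited scale after 6 h of imatinib (20.0% of genes), 8 after 6 h of JQ1 (49.8%), and 10 at 24 h with imatinib (72.1%), with JQ1 (75.3%) and with both (86.0%). ATG16L2, at 1.69 FPKM in DMSO, was the one without a call at 24 h. Their relative changes ranged from −0.80 to 0.14 and from −0.32 to 0.25 at 6 h, and from −0.78 to 0.50 at 24 h over the 3 treatments. ATG16L1, which places the conjugation reaction on the membrane, had the largest fall of the 11 in 4 of the 5 comparisons with DMSO; after 6 h of JQ1 that was ATG10 (−1.37, beside −1.01 for ATG16L1). ATG16L1 had 31.9, 39.1 and 46.7 FPKM in DMSO and 12.2, 11 and 14 FPKM after 6 h of imatinib, with no overlap. This was a 3.17-fold lower mean and a fall of 1.58 ± 0.19 (adjusted p = 3.56e-07, limma). The mean was 6.47 FPKM after 24 h of imatinib and 4.39 FPKM after the combination, 8.95-fold below DMSO. After 6 h of JQ1 it was higher than after imatinib, at 18.7 FPKM. ATG4B, the protease that trims ATG8 proteins, fell by 1.28 after 6 h of imatinib (adjusted p = 6.95e-06, limma). ATG3, the enzyme that hands ATG8 to the lipid and whose promoter stretch is printed above, fell from a mean of 99.0 FPKM in DMSO to 14.8 after the combination.

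The ATG8 family changed in composition as well as in amount. In DMSO, GABARAP made up 57.2% of the summed FPKM of the family, MAP1LC3B 14.5%, GABARAPL2 11.4%, MAP1LC3B2 11.4%, GABARAPL1 3.68% and MAP1LC3A 1.80%; MAP1LC3C and GABARAPL3 were not expressed at a testable level. The family sum was 72.5% and 50.0% of DMSO after 6 and 24 h of imatinib, 62.4% and 48.9% after JQ1, and 35.2% after the combination on the deposited scale, and 126%, 169%, 140%, 161% and 187% on the relative scale. Without GABARAP, the log2 change of the sum after 6 h of JQ1 was −0.33 in place of −0.68 on the deposited scale and 0.83 in place of 0.48 on the relative scale.

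MAP1LC3A (LC3A) was the member of the family with higher deposited values after 24 h of imatinib. It had 25.0, 36.9 and 40.4 FPKM in DMSO, 28.1, 30.4 and 32.2 after 6 h of imatinib, and 57.2, 55.1 and 58.0 after 24 h. All 3 of the 24 h libraries were above every DMSO library. The same held for CTSF, CTSO and ATP6V1G2, or 4 of 63 members, beside 2.89% of all genes. The log2 change was 0.75 ± 0.21 on the deposited scale (adjusted p = 0.00193, limma), under the size for a call. Its relative values went from 12.2, 15.0 and 13.6 to 81.7, 72.0 and 77.4, a 5.67-fold higher mean with no overlap, and MAP1LC3A rose by 2.42 ± 0.084 (adjusted p = 1.56e-13, limma). After JQ1 the deposited values were 16.5, 14.1 and 16.1 FPKM at 6 h, a fall of 1.06 (adjusted p = 7.1e-05), and 22.5, 26.8 and 33.3 FPKM at 24 h, which overlapped DMSO. The combination had 21.8, 41.0 and 23.6 FPKM, with replicate 2 well above the others and above all DMSO values. That library was also the highest of its group in the deposited family sum (484, 878 and 626 FPKM). Totals over genes in the combination ran from 286566 to 499857, so the spread was not particular to MAP1LC3A. MAP1LC3A rose on the relative scale by 1.35 after 24 h of JQ1 and by 2.08 after the combination (adjusted p = 3.67e-10 and 8.72e-13, limma).

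MAP1LC3B (LC3B), the family member most used as an autophagy marker, showed the opposite order of drugs. It had 220, 279 and 320 FPKM in DMSO and 275, 239 and 290 FPKM after 6 h of JQ1, values that lay inside the DMSO range, while 6 h of imatinib gave 173, 167 and 180 FPKM, all lower. The deposited change with JQ1 was −0.02 ± 0.19 (adjusted p = 0.941, limma), at a time when the median gene had changed by −1.0. On the relative scale MAP1LC3B went from 107, 114 and 107 to 243, 234 and 243 and rose by 1.13 ± 0.046 (adjusted p = 5.69e-12, limma). With 1 total per library in place of the median ratio that change was 0.88 and no longer called. Its share of the family was 22.8% after 6 h of JQ1, between 22.4% and 23.3% in the 3 libraries, against 14.4% to 14.7% in DMSO. By 24 h it was 91.8 FPKM after imatinib (a fall of 1.55), 155 after JQ1 (−0.80) and 111 after the combination (a fall of 1.31). MAP1LC3B2 gave nearly the same pattern, with 214 FPKM in DMSO and 192 after 6 h of JQ1. Over the 601 bases where their GENCODE transcripts align, 584 are identical (97.2%), so reads from one could have been assigned to the other and the 2 levels are uncertain separately.

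GABARAPL1, a GABARAP paralog known to be induced by starvation, had 54.6, 69.9 and 83.4 FPKM in DMSO, 81.0, 75.4 and 94.1 after 6 h of imatinib, and 31.4, 29.6 and 33.1 after 6 h of JQ1. The imatinib libraries overlapped DMSO at its top and the JQ1 libraries lay below it. Among the other genes of its library it rose by 1.04 ± 0.046 with imatinib at 6 h, where its mean was 2.09 times DMSO (adjusted p = 1.96e-11, limma). Its share of the family was 6.12% there and 2.62% at 24 h of imatinib, against 3.68% in DMSO. GABARAPL1 fell on the deposited scale by 1.10 after 6 h of JQ1 (−0.96 and not called without DMSO replicate 3), by 1.44 after 24 h of imatinib and by 2.07 after the combination. GABARAP itself, the most abundant member at 1076 FPKM in DMSO, was 602 after 24 h of imatinib and 335 after the combination. GABARAPL2 rose by 1.14 on the relative scale after the combination.

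**Figure D2:**
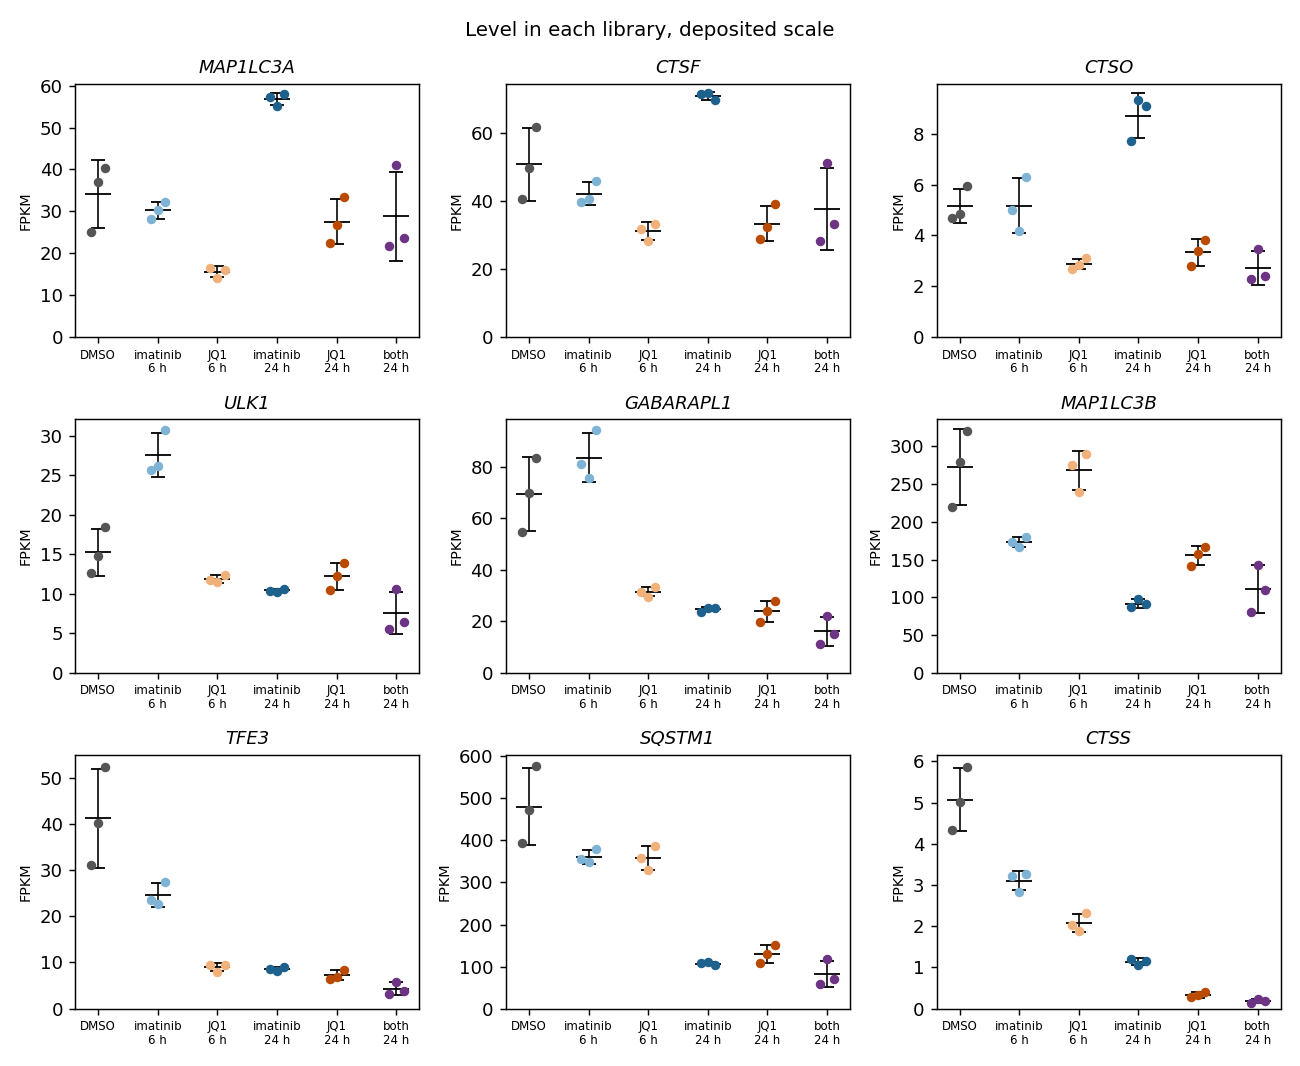
Deposited FPKM of 9 members in each of the 18 libraries, as points, with the group mean and SD as lines. MAP1LC3A, CTSF and CTSO are highest after 24 h of imatinib, ULK1 after 6 h of imatinib, and CTSS and TFE3 are lowest in the combination.

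**Figure D3:**
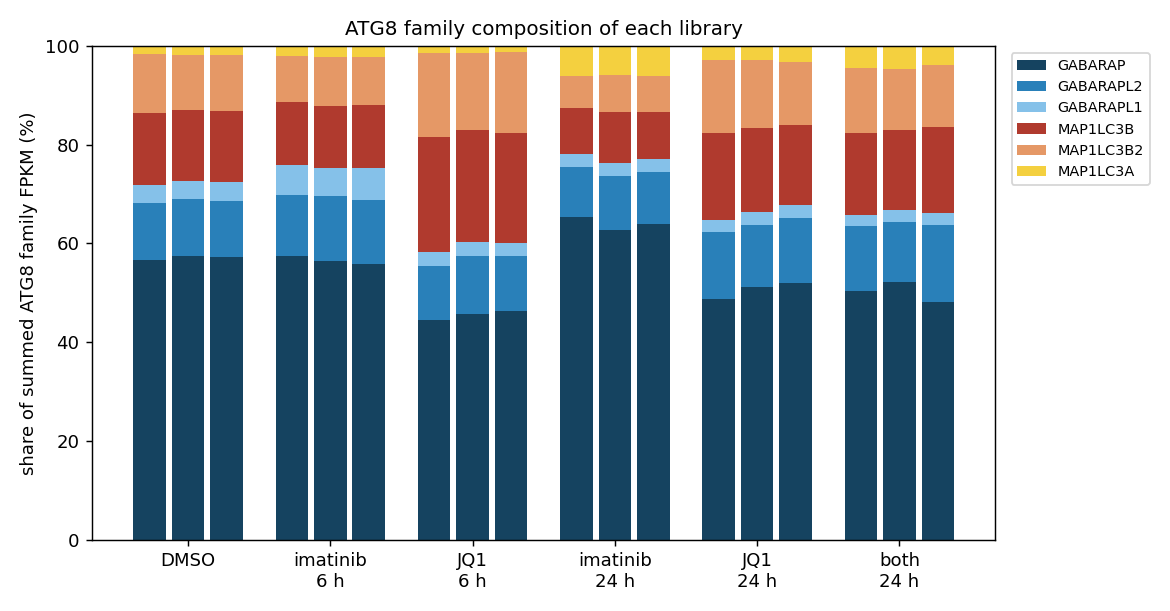
Share of each ATG8 family gene in the family's summed FPKM, in percent, as 1 stacked bar for each of the 18 libraries. On average MAP1LC3B takes 22.8% after 6 h of JQ1, and MAP1LC3A goes from 1.80% in DMSO to 6.03% after 24 h of imatinib.

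SQSTM1 (p62), the receptor that carries ubiquitinated cargo into autophagosomes, had its larger changes at 24 h on the deposited scale. Its libraries had 393, 472 and 576 FPKM in DMSO, 355, 349 and 380 after 6 h of imatinib, and 358, 330 and 387 after 6 h of JQ1. Each 6 h group lay below DMSO, with changes of −0.39 and −0.41. After 24 h of imatinib it had 108, 110 and 103 FPKM, a 4.50-fold lower mean and a fall of 2.14 ± 0.21 (adjusted p = 1.67e-09, limma). JQ1 gave 109, 129 and 151 FPKM at 24 h (a fall of 1.88) and the combination 57.8, 117 and 71.4 (a fall of 2.58). Relative to other genes SQSTM1 was higher than DMSO at 6 h, by 0.38 with imatinib and 0.74 with JQ1, and lower at 24 h, by −0.41, −0.18 and −0.16, all under the size for a call. From 6 to 24 h it fell by 1.75 with imatinib and by 1.47 with JQ1 on the deposited scale. These 2 time comparisons called 19 falls among the members (33.4% of genes fell) and 6 falls (14.2% of genes), respectively. Because DMSO was not given for each time, longer treatment and longer culture cannot be told apart in them.

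Among the lysosomal membrane proteins, LAMP1 and LAMP2 coat the organelle's inner face and LAMP3 is an inducible form. LAMP1 had 416, 529 and 672 FPKM in DMSO and 192, 203 and 195 after 24 h of imatinib. It fell by 1.42 there, by 1.33 after 24 h of JQ1 and by 1.63 after the combination, and its relative changes in the 5 comparisons lay between 0.25 and 0.80 with no call. LAMP2 lost less: it had 96.1, 123 and 145 FPKM in DMSO and 46.2, 75.3 and 61.5 after the combination, with no overlap and a change of −0.99. That value was just under the size for a call and passed it without DMSO replicate 1 (−1.15), without combination replicate 2 (−1.15) or without combination replicate 3 (−1.01). On the relative scale LAMP2 had 46.9, 50.0 and 48.8 in DMSO and 131, 124 and 139 after the combination, a rise of 1.42 ± 0.05 (adjusted p = 1.67e-13, limma). LAMP3 was low, at 6.06 FPKM in DMSO, and fell by 2.01 after 24 h of imatinib to 0.735 FPKM.

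The cathepsins are the proteases of the lysosome. Of the 9 tested, the numbers that fell on the deposited scale were 3 after 24 h of imatinib (72.1% of genes fell), 5 after 24 h of JQ1 (75.3%) and 7 after the combination (86.0%). At 6 h their changes lay between −0.98 and −0.01, short of a call. Relative to other genes, 3 rose after 24 h of imatinib (CTSA, CTSF, CTSO), CTSF rose after 24 h of JQ1, and 4 rose after the combination (CTSA, CTSB, CTSF, CTSO), where 8.80%, 5.26% and 9.19% of genes rose. Their sum was 69.5% and 55.1% of DMSO after 6 and 24 h of imatinib, 56.3% and 42.0% after JQ1 and 35.3% after the combination on the deposited scale. The cathepsin sum and shares leave out cathepsin L (CTSL1) and CTSL2, whose symbols the naming rule did not take in.

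CTSF, a cysteine cathepsin whose promoter stretch with 1 match is printed above, had 40.6, 49.9 and 62.0 FPKM in DMSO and 71.6, 72.0 and 69.8 after 24 h of imatinib. The imatinib libraries were all higher. JQ1 at 24 h had 28.8, 32.3 and 39.1 FPKM, all lower, and the combination had 28.2, 51.2 and 33.3, which overlapped DMSO. The deposited change with imatinib was 0.50 ± 0.19 (adjusted p = 0.0192, limma), and on the relative scale CTSF rose by 2.19 ± 0.043 (adjusted p = 2.94e-16), from 19.8, 20.3 and 20.8 to 102, 94.1 and 93.1. It rose by 1.07 after JQ1 and 1.92 after the combination on that scale; with 1 total per library the JQ1 value was 0.97 and no longer called. CTSF made up 3.41% of the summed cathepsins in DMSO and 8.64% after 24 h of imatinib, with a range of 8.55% to 8.69% over the libraries.

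CTSO, a less studied cysteine cathepsin, moved in the same way at a lower level. It had 4.68, 4.84 and 5.93 FPKM in DMSO and 7.70, 9.35 and 9.09 after 24 h of imatinib, all higher, a log2 change of 0.66 ± 0.16 (adjusted p = 0.000377, limma). The JQ1 24 h libraries had 2.78, 3.38 and 3.83 FPKM and the combination 2.27, 3.48 and 2.40, all below DMSO. CTSO rose on the relative scale, by 2.05 ± 0.073 after imatinib and by 1.15 ± 0.073 after the combination (adjusted p = 2.28e-13 and 2.95e-10, limma).

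CTSS, an endosomal protease best known from antigen-presenting cells, changed in the other direction and was the member that fell on both scales. It had 4.34, 5.02 and 5.86 FPKM in DMSO, and after the combination 0.128, 0.222 and 0.191. Imatinib gave 1.21, 1.06 and 1.16 FPKM at 24 h, and JQ1 gave 0.274, 0.329 and 0.414. No group overlapped another among these 4. The means after JQ1 and the combination were 15.0 and 28.1 times lower than in DMSO. CTSG, a protease gene of myeloid cells, was listed at 0.107 FPKM in DMSO and 0.0928 in the combination, a floor close to the lowest CTSS values, so these ratios have that floor in them. CTSS fell by 2.17 ± 0.11 after JQ1 and 2.36 ± 0.11 after the combination on the deposited scale (adjusted p = 5.85e-14 and 5.01e-15, limma) and by 1.08 and 1.13 on the relative scale. The summed macrophage and leukocyte markers, each under 1 FPKM, were between 1.49 and 2.00 FPKM in DMSO and between 0.973 and 1.12 in the combination.

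The abundant cathepsins were intermediate. CTSD, the aspartic protease with a promoter match above, had 406, 518 and 664 FPKM in DMSO and 149, 276 and 162 after the combination, with no overlap. Its deposited change was −0.88 after 24 h of imatinib, and −1.06 and called without DMSO replicate 1; it fell by 1.23 after JQ1 and by 1.46 after the combination. CTSA, the serine carboxypeptidase that protects other lysosomal enzymes, went from a mean of 306 FPKM in DMSO to 193 after 24 h of imatinib and 141 after the combination, and on the relative scale it rose by 1.09 and 1.30. CTSC, which activates serine proteases, went from 400 FPKM to 166 and 79.5, with its share of the cathepsin sum at 26.8% in DMSO and 15.2% in the combination. CTSK, the collagen-degrading cathepsin known from osteoclasts, had 8.79 FPKM in DMSO, 5.90 (imatinib) and 5.87 (JQ1) at 6 h, 2.03 and 2.22 at 24 h, and 0.868 after the combination (a fall of 2.38, adjusted p = 2.32e-13, limma).

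Summed over its ATP6V0 and ATP6V1 genes, the proton pump was lower at 24 h, in percent of DMSO, than 2 other sums on the deposited scale. These were the ATG8 family and the cathepsins of the naming rule. The abundant CTSL1 is outside the cathepsin sum, so this order holds only for the genes summed. The summed V0 and V1 subunits were at 60.1% and 57.9% of DMSO after 6 h of imatinib and JQ1, 28.4% and 36.1% at 24 h, and 23.2% after the combination, while on the relative scale they were at 105%, 130%, 96.2%, 119% and 124%. All 7 tested V0 subunits fell after 24 h of imatinib, of JQ1 and of both, and 8, 9 and 9 of the 11 tested V1 subunits fell, where 72.1%, 75.3% and 86.0% of genes fell. The V0 subunits' relative changes stayed between −0.91 and 0.70 in all 5 comparisons. ATP6V0D1, the subunit that joins the sectors, went from 230, 294 and 356 FPKM in DMSO to 104, 102 and 101 after 24 h of imatinib, a fall of 1.49. ATP6V1A, the catalytic subunit, went from 65.2, 78.9 and 90.9 to 25.6, 29 and 26.4 FPKM, also a fall of 1.49. Neither group overlapped DMSO.

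ATP6V0B, a proteolipid of the membrane ring whose promoter stretch above has 2 matches, was the pump subunit with the largest fall after 24 h of imatinib. It had 395, 517 and 594 FPKM in DMSO, 303, 265 and 342 after 6 h of JQ1, and 78.3, 78.7 and 78.7 after 24 h of imatinib. The 24 h libraries were 6.39-fold below DMSO on average, a fall of 2.64 ± 0.18 (adjusted p = 1.1e-11, limma). JQ1 at 24 h left 121, 129 and 150 FPKM (a fall of 1.89), and the combination 60.0, 97.6 and 73.5 (a fall of 2.70), which overlapped the imatinib libraries.

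Subunits that exist as alternative genes shifted in their proportions. TCIRG1, a further a-subunit gene without an ATP6V0 symbol, is not in the a-subunit sums here. ATP6V0A2, the a-subunit form known from the Golgi and endosomes, made up 31.2% of the summed ATP6V0A FPKM in DMSO. At 6 h that share was 20.4% with imatinib and 22.4% with JQ1, and at 24 h the shares were 14.8% (imatinib), 19.3% (JQ1) and 15.4% (both). ATP6V0A2 had 12.5, 14.6 and 19.0 FPKM in DMSO and 4.16, 4.23 and 5.08 FPKM after 6 h of imatinib, a fall of 1.56 ± 0.15 (adjusted p = 2.08e-08, limma). ATP6V1G2, the G-subunit form known from neurons, had 1.44, 1.54 and 2.39 FPKM in DMSO and 2.44, 3.32 and 3.47 after 24 h of imatinib. These were all higher, and its share of the G subunits was 0.845% in DMSO and 4.87% there. ATP6V1G2 rose by 1.58 ± 0.12 on the relative scale (adjusted p = 2.07e-09, limma). Reads could have been assigned to it or to the readthrough row that shares its sequence, so its level is uncertain. ATP6V1E2, an E-subunit form known from testis, was 2.80 FPKM in DMSO, and at 24 h 2.43 with imatinib and 0.605 with JQ1. The ratios of 3 libraries against 3 cannot give an exact p below 0.1, so the shares are given without a test.

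Of the pump rows that are not subunit genes, ATP6V0CP3 is a pseudogene below the filter, ATP6V0E2-AS1 is antisense to a subunit, and ATP6V1G2-DDX39B is a readthrough transcript that shares sequence with 2 genes. The libraries were stranded, but the sources used here do not give whether strand was used in counting, so the antisense row may hold reads of its partner. The readthrough row was listed at 2.56, 0.0989 and 0.124 FPKM after 6 h of JQ1, so 1 library sets its mean.

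**Figure D4:**
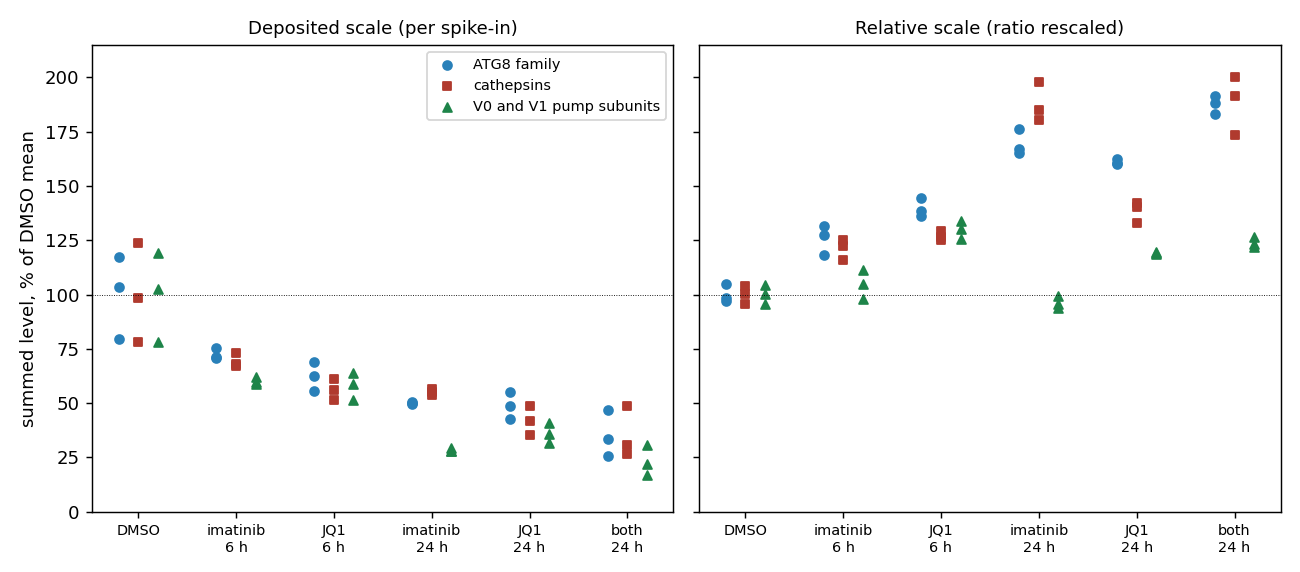
Summed level of the ATG8 family, the cathepsins and the pump subunits in each library, in percent of the DMSO mean, on the deposited scale (left) and the relative scale (right). The cathepsin sum is without CTSL1 and CTSL2, and the pump sum holds the ATP6V0 and ATP6V1 subunits. On the left all treated group means are below DMSO, down to 23.2% for the pump in the combination; on the right the ATG8 and cathepsin sums are above DMSO, and the pump means lie between 96.2% and 130%.

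The 3 transcription factors all fell with JQ1 at both times on the deposited scale, where 49.8% and 75.3% of genes fell. On the relative scale none was called with JQ1. The relative changes at 6 and 24 h were −0.94 and −0.73 for TFE3, −0.58 and −0.61 for TFEB, and −0.36 and −0.27 for MITF. TFE3, the most abundant, had 31.1, 40.2 and 52.4 FPKM in DMSO, 23.6, 22.7 and 27.5 after 6 h of imatinib, and 9.53, 7.92 and 9.46 after 6 h of JQ1. Both groups lay below DMSO, and the JQ1 libraries lay far below the imatinib libraries. TFE3 fell by 2.06 ± 0.19 with JQ1 (4.60-fold lower mean, adjusted p = 3.01e-09, limma), and its relative change of −0.94 ± 0.055 was just under the size for a call, which it passed with a pseudocount of 0.1 (−1.02) or with 1 total per library (−1.17). At 24 h it was 8.51 FPKM with imatinib, 7.21 with JQ1 and 4.32 with both, which is 9.56-fold below DMSO.

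TFEB was lower with JQ1 than with imatinib at both times, though only 1 of the direct comparisons gave a call. It had 3.64, 4.97 and 5.81 FPKM in DMSO, 2.74, 2.26 and 3.10 after 6 h and 2.44, 2.20 and 2.39 after 24 h of imatinib, but 0.994, 1.08 and 1.09 after 6 h and 0.493, 0.660 and 0.959 after 24 h of JQ1. The JQ1 libraries did not overlap the imatinib libraries at either time. The direct change of JQ1 against imatinib was −0.84 at 6 h and −0.98 at 24 h on the deposited scale, under the size for a call. On the relative scale it was −0.55 at 6 h, not called, and −1.13 at 24 h, called. TFEB fell by 1.48 ± 0.13 and 1.76 ± 0.13 with JQ1 (adjusted p = 1.81e-09 and 3.64e-11, limma) and by 2.06 with the combination, where it had 0.341, 0.421 and 0.370 FPKM. MITF, known as the melanocyte factor, was at 4.15 FPKM in DMSO, 2.08 and 1.30 after imatinib, 1.20 and 0.928 after JQ1 and 0.556 after both, and it fell in 4 of the 5 comparisons, all but 6 h of imatinib (−0.75).

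The 10 members with TCACGTG in the promoter and the 38 tested members whose promoter lacked it had median changes of 0.28 and 0.20 on the relative scale after 24 h of imatinib. The medians were 0.42 and 0.21 after 24 h of JQ1, and 0.75 and 0.29 after the combination, with ranges that overlapped (−0.31 to 1.92 with and −0.77 to 1.25 without the motif). The deposited medians were −1.46 and −1.36, −1.28 and −1.29, and −1.68 and −1.85. CTSF and ATP6V0B both hold the motif and stood at the opposite ends of the 10 genes after 24 h of imatinib, at 2.19 and −0.91 on the relative scale.

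Compared with imatinib at the same time, JQ1 gave lower levels of ULK1 and ATG13, 2 of the 4 tested initiation genes, at 6 h, and of CTSO, CTSF and MAP1LC3A at 24 h. At 6 h all 6 called members were lower with JQ1 on the deposited scale (9.36% of genes were), namely ATG13, GABARAPL1, TFE3, ULK1, WIPI1 and the readthrough row, and ATG13 (−1.46 ± 0.18, adjusted p = 9.61e-07, limma) and GABARAPL1 (−1.38 ± 0.20, adjusted p = 7.76e-06) led. The 2 calls on the relative scale were ATG13 (−1.09) and GABARAPL1 (−1.01), beside 3.32% of genes that were lower; without imatinib 6 h replicate 1 or JQ1 6 h replicate 1 the count was 4, and without imatinib 6 h replicate 3 GABARAPL1 was −0.99 and the count was 1. At 24 h all 5 called members were lower with JQ1 (4.88% of genes): CTSO (−1.17 ± 0.16, adjusted p = 3e-06), CTSF (−1.08), MAP1LC3A (−1.03), ATP6V1E2 (−1.10) and the readthrough row. Without the JQ1 24 h library that has no number the count was 3, with CTSF at −0.98 and MAP1LC3A at −0.90. On the relative scale 7 were lower (6.10% of genes), the same 5 with TFEB (−1.13 ± 0.079, adjusted p = 1.99e-09, limma) and ATP6V1G2 (−1.05).

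Adding JQ1 to imatinib at 24 h lowered 8 members on the deposited scale (14.5% of genes fell). CTSO fell by 1.40 ± 0.16 (adjusted p = 1.51e-07, limma) and TFEB by 1.28 ± 0.13 (adjusted p = 4.51e-08); the others were ATP6V1G2, the readthrough row, CTSH, CTSC, ATP6V1E2 and MAP1LC3A. The count was 4 without combination replicate 1 and 13 without combination replicate 2, and CTSH was −0.93 without combination replicate 1. Relative levels of TFEB fell by 1.19, ATP6V1G2 by 1.04 and the readthrough row by 1.25 (5.60% of genes fell), and the count was 0 among genes with a mean of 5 FPKM or more. The ATP6V1G2 value was −0.98 without imatinib 24 h replicate 3 and −0.95 without combination replicate 3. Adding imatinib to JQ1 gave 0 calls in limma on either scale, where 7.40% and 1.05% of genes were called. At an unadjusted p below 0.05, 44 and 37 of the 63 members differed, as did 77.0% and 56.5% of all genes. The deposited count was 2 without combination replicate 2. The relative changes of CTSF and MAP1LC3A there were 0.85 ± 0.043 and 0.74 ± 0.084 (adjusted p = 3.51e-10 and 2.75e-06, limma), under the size for a call.

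Between 6 and 24 h of imatinib, the relative scale showed 4 rises, MAP1LC3A (1.83), CTSF (1.69), CTSO (1.49) and ATP6V1G2 (1.05), where 3.98% of genes rose; ATP6V1G2 was 0.99 without imatinib 24 h replicate 3. With JQ1 the 1 rise over time was MAP1LC3A (1.31 ± 0.084, adjusted p = 8.86e-10, limma), beside 2.68% of genes. That count was 2 without JQ1 24 h replicate 3 or without any one of the combination libraries, which enter through the shared spread. On the deposited scale GABARAPL1 fell by 1.72 and ATP6V0B by 1.67 with imatinib over this time, and CTSS fell by 1.20 and ATP6V0B by 1.18 with JQ1. These comparisons over time have no DMSO group for each time, so time in culture is part of them.

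The interaction asks whether the combination differed from the sum of both single-drug log2 changes at 24 h. On the deposited scale 23 members were above that sum (46.8% of genes were), and the count was 15 without DMSO replicate 3 or without combination replicate 2. The largest were ATP6V0B (1.84 ± 0.26, adjusted p = 3.68e-06, limma) and LAMP3 (1.80 ± 0.18, adjusted p = 7.13e-08). For LAMP3 the single-drug changes were −2.01 and −1.58 and the combination's was −1.79. LAMP3 was so low in DMSO that, with the pseudocount, it could not fall by the sum of both changes. The sign of its interaction was therefore fixed in advance. The same held for CTSS, also among the 23, with single-drug changes of −1.49 and −2.17. It held as well for ATP6V0A2 (interaction 1.68), with single-drug changes of −2.33 and −1.97. Whether it held for others of the 23 was not examined. On the relative scale 7 members were below the sum (5.83% of genes were). CTSO was at −1.70 ± 0.10 (adjusted p = 7.5e-10, limma) and MAP1LC3A at −1.68 ± 0.12 (adjusted p = 4.01e-09). The other 5 were ATP6V1G2 (−1.58), CTSF (−1.34), the readthrough row (−1.18), WIPI1 (−1.17) and ULK1 (−1.09). For MAP1LC3A the single-drug relative changes were 2.42 and 1.35 and the combination's was 2.08; for ULK1 they were 1.08, 1.26 and 1.25.

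**Figure D5:**
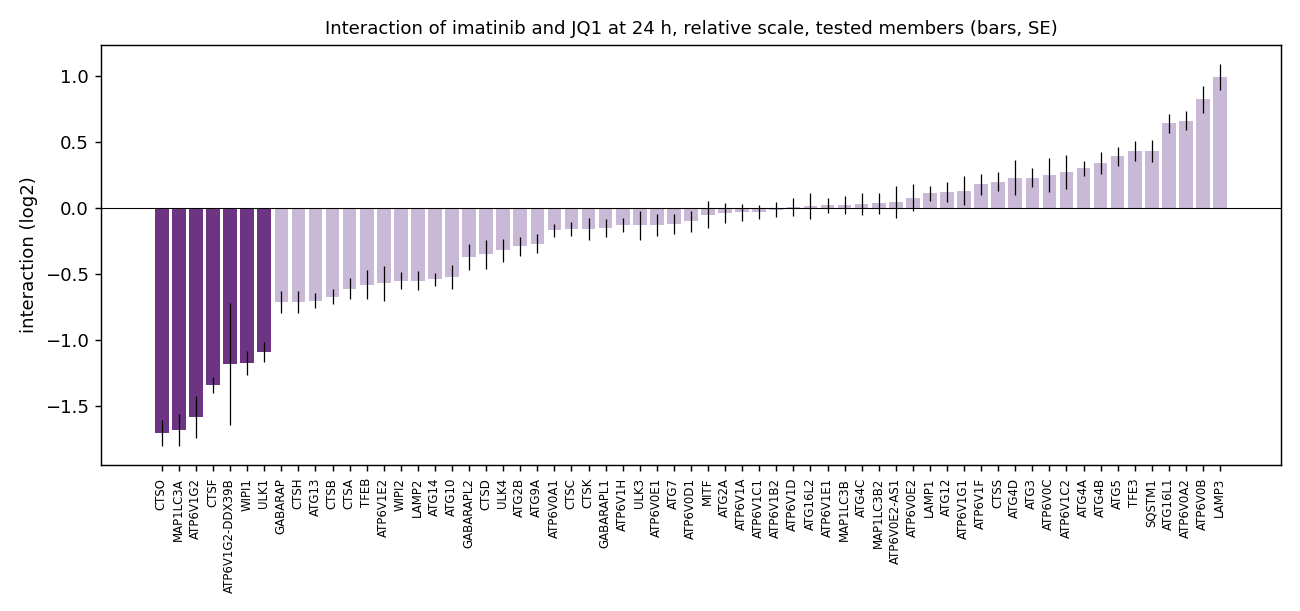
Interaction of imatinib and JQ1 at 24 h on the relative scale for the 63 tested members: the combination's log2 change less the sum of both single-drug changes, as bars with SE lines, dark for calls. The 7 calls lie between −1.70 and −1.09.

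Other genes of the pathways were taken from lists set together with the members, when earlier results of these data were known. The shares of all genes stand beside the list counts as description only. Of 51 tested lysosomal enzymes and membrane proteins, 17 rose (8.80% of genes) and 3 fell (8.75% of genes) after 24 h of imatinib on the relative scale, for JQ1 the numbers were 12 (5.26%) and 1 (6.48%), and for the combination 22 (9.19%) and 2 (10.2%), with medians of 0.66, 0.49 and 0.83. NPC2, a carrier that moves cholesterol out of the lysosome, had 92.8, 128 and 147 FPKM in DMSO and 171, 174 and 166 after 24 h of imatinib, 175, 197 and 226 after JQ1 and 130, 210 and 159 after both. Both single-drug groups lay wholly above DMSO, and on the relative scale NPC2 rose by 2.22, 2.40 and 2.85. CTSL1, the cathepsin L gene, whose symbol falls outside the naming rule for cathepsins here, went the other way, with 582, 753 and 872 FPKM in DMSO and 61.8, 66.0 and 58.8 after 24 h of imatinib. It fell by 3.52 on the deposited and 1.79 on the relative scale there (adjusted p = 2.54e-13 and 1.06e-14, limma).

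Of 37 further autophagy genes, 4 rose after 6 h and 9 after 24 h of imatinib on the relative scale (1.22% and 8.80% of genes). JQ1 at 24 h gave 6 rises (5.26%) and 1 fall (6.48%), and the combination 6 rises (9.19%) and 2 falls (10.2%). BNIP3L, a mitochondrial receptor for ATG8 proteins, had 24.2, 36.0 and 35.8 FPKM in DMSO, 58.5, 58.5 and 55.7 after 6 h of imatinib and 56.2, 61.4 and 71.4 after 24 h of JQ1, both wholly above DMSO. Its relative scale rise was 1.58 at 6 h of imatinib and 2.61 at 24 h of JQ1. Among 37 genes of mTORC1 and nutrient sensing, 2 rose on the deposited scale after 6 h of imatinib, where 0.384% of genes rose. They were DEPTOR, an mTOR inhibitor, and SESN3, a sestrin. In the same comparison 3 of the 37 fell (20.0% of genes), RRAGA (−1.06), FNIP2 (−1.02) and PRKAA1 (−1.06). DEPTOR had 2.96, 4.12 and 3.83 FPKM in DMSO and 11, 9.61 and 11.9 after 6 h of imatinib, a rise of 1.35 ± 0.17 (adjusted p = 5.81e-07, limma), but 0.965, 0.985 and 0.960 after 6 h of JQ1, a fall of 1.23. SESN3 rose by 1.08 with imatinib at 6 h. A list of 14 tested further pump genes held accessory and assembly genes and the a-subunit gene TCIRG1. All 14 fell after the combination on the deposited scale (86.0% of genes fell). ATP6AP2 and OXR1 rose on the relative scale there (9.19% of genes rose).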

How the data were processed

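The table is one FPKM matrix of 18 libraries. Per the labels' protocols, polyA libraries (TruSeq Stranded mRNA) were made from RNA brought to equal cell numbers and mixed with ERCC spike-ins. The submitters' processing notes name STAR, Cufflinks and hg19; versions and the normalization step are not given in the sources used here. The authors deposited the FPKM values as normalized, and nothing was recounted. From them, log2(FPKM + 1) was fitted with limma 3.58.1 (R 4.3.3, intensity trend, 1 mean per group, 12 residual degrees of freedom), two-sided, with Benjamini-Hochberg adjustment over 12771 genes with at least 1 FPKM in 3 libraries. A log2 change on this scale understates changes of low genes. There were 12 comparisons on 2 scales: the deposited (spike-in) values, and each library divided by its median ratio to the geometric mean library. The code was tested on simulated data.

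One JQ1 24 h column has a number that matches no title, so it is used as an unnumbered library of its group. Pairs of libraries within groups had correlations of 0.979 to 0.989 and no columns were identical. The members and lists were chosen with earlier results of these data known. A fixed rule named 14 members for every DMSO comparison, together with up to 4 rising and 4 falling calls of largest size per DMSO comparison and scale (5 FPKM or more on average in whichever group was higher, no overlap of libraries), 2 and 2 elsewhere, and all calls where 5 or fewer were made. Other members and list genes were named after their values were seen. Alternatives were a pseudocount of 0.1, testing without a filter, a stricter filter on the mean (5 FPKM), the replicate number as a block, only the groups compared, 1 total without the MIR1244 rows for the relative scale, and each library left out in turn. Coordinates of hg19 genes are not used here.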

Additional observations from a re-analysis of the deposited data

Results flagged for a closer look

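These results are listed because a test of the difference between 2 contrasts or 2 times passed; groups of 3 libraries are too small to be examined for single outlying libraries. At 24 h, 23 members differed from the sum of both drugs' changes on the deposited scale and 7 on the relative scale (limma interaction term). The members with the largest values were ATP6V0B at 1.84 and LAMP3 at 1.80 on the deposited scale, and CTSO at −1.70 and MAP1LC3A at −1.68 on the relative scale. For LAMP3 the low DMSO level and the pseudocount fixed the sign in advance. Between 6 and 24 h, imatinib differed for 19 members on the deposited scale and 4 on the relative scale, and JQ1 for 6 and 1. Without a DMSO group for each time, the differences over time cannot be told apart from effects of longer culture. What underlies all the differences listed here was not tested.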

How the results depend on the processing

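Of 1035 values under other settings, 1021 kept their direction and side of the threshold, as did 3517 of 3546 values with 1 library left out; the cause was not tested for those that did not. With a pseudocount of 0.1 the counts of called members on the relative scale were 4 for JQ1 6 h, 7 for JQ1 24 h, 6 for the combination against imatinib, 4 for JQ1 against imatinib at 6 h and 2 for JQ1 over time, and on the deposited scale 14 for the combination against imatinib, 1 for the combination against JQ1 and 8 for JQ1 against imatinib at 24 h. With a mean of at least 5 FPKM, which tests fewer genes, they were 7 for imatinib 24 h, 0 for the combination against imatinib (3 without this filter), 2 for JQ1 against imatinib at 24 h, 2 for imatinib over time and 4 for the interaction on the relative scale, and 3 and 2 for the combination and JQ1 against imatinib at 24 h on the deposited scale.

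With 1 library left out, the counts on the deposited and relative scales ranged from 3 to 8 and 3 to 4 for imatinib 6 h, 12 to 30 and 1 to 2 for JQ1 6 h, 39 to 43 and 9 to 11 for imatinib 24 h, 41 to 48 and 4 to 5 for JQ1 24 h, and 52 to 57 and 11 to 14 for the combination. They ranged from 4 to 13 and 2 to 4 for the combination against imatinib, 0 to 2 and 0 to 0 against JQ1, 5 to 7 and 1 to 4 for JQ1 against imatinib at 6 h, 3 to 7 and 6 to 7 at 24 h, 18 to 21 and 3 to 4 for imatinib over time, 6 to 6 and 1 to 2 for JQ1 over time, and 15 to 34 and 6 to 8 for the interaction.

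With 1 total per library without the MIR1244 rows, the JQ1 6 h relative changes of GABARAPL1, ATG9A and CTSD turned to −0.22, −0.063 and −0.041, and MAP1LC3B was 0.88 at JQ1 6 h and 0.96 in the combination, ATG13 0.99 at imatinib 6 h, CTSF 0.97 at JQ1 24 h and TFE3 −1.17 at JQ1 6 h. When 1 library was left out, the relative change of TFEB at imatinib 6 h ranged from −0.059 to 0.022 (−0.026 with all libraries) and turned sign without DMSO replicate 2 (7.8e-05) or imatinib 6 h replicate 2 (0.022). The deposited change of MAP1LC3B at JQ1 6 h ranged from −0.16 to 0.11 (−0.015 with all libraries) and turned sign without DMSO replicate 2 (0.011), DMSO replicate 3 (0.11) or JQ1 6 h replicate 2 (0.064).

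The replicate numbers did not pair the libraries: same-numbered libraries had deviations correlated at a median of −0.0341 over 40 pairs (4 above 0.1), beside 0.0113 over 80 pairs with different numbers. With the replicate block, which drops the unnumbered library, the counts were those reported except 4 in place of 5 for JQ1 against imatinib at 24 h on the deposited scale (MAP1LC3A at −0.98). FPKM hold no depth, so counting error could not be separated from other spread.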
